A study of Mus musculus with 16 samples.

Results

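The 10 genes Pdgfra, Tcf21, Dpt, Pi16, Cd248, Scara5, Gsn, Abca8a, Thy1 and Ddr2 mark resident cardiac fibroblasts, the matrix-keeping cells of the unstressed ventricle. They were taken by symbol from the 55573 genes counted in ventricular RNA of 16 mice, each symbol matched a single gene, and all 10 passed the filter on low counts that left 19955 genes for testing. All 16 mice were males with floxed Trbp alleles on both chromosomes and the αMHC-MerCreMer transgene, a Cre recombinase driven by a cardiomyocyte promoter and active only under tamoxifen. The 8 control mice received corn oil and the 8 Trbp-cKO mice received tamoxifen at 30 mg/kg, in either case once a day for 5 days from the age of 4 weeks. Of each injection group, 4 mice had transverse aortic constriction (TAC), a ligature on the aorta that raises the load on the left ventricle, and 4 had sham surgery. Hearts were taken about 8 weeks after surgery, at 16 weeks of age, and each library held 1 heart. Tamoxifen and the deletion cannot be told apart in these groups, and the fibroblasts themselves are not the cells in which this Cre acts.

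Resident fibroblasts lie between the cardiomyocytes, hold the collagen network and respond to pressure load by dividing, by laying down matrix and, in part of the cells, by turning on a contractile and matrix-secreting program. Their markers differ in what they do. Pdgfra is the receptor through which platelet-derived growth factors keep fibroblasts alive and dividing, Ddr2 is a receptor tyrosine kinase that is activated by collagen, Tcf21 is a basic helix-loop-helix transcription factor of the fibroblast lineage, and Dpt, dermatopontin, is a matrix protein that binds decorin and assists collagen assembly. Pi16 encodes a secreted or membrane-anchored peptidase inhibitor that marks adventitial and progenitor-like fibroblasts, Cd248 encodes endosialin, a surface glycoprotein of fibroblasts and pericytes, Scara5 a ferritin receptor, Gsn the actin-severing protein gelsolin, Abca8a a lipid transporter and Thy1 a surface glycoprotein shared with T lymphocytes and neurons. In whole ventricle, fewer cells of a type and less RNA per cell cannot be told apart.

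Promoter windows, 250 bases before to 50 bases after a gene's start in RefSeq on GRCm38.p6, were at hand for 7 of the 10 genes, and those of 4 genes are shown because all Trbp-cKO sham hearts lay above all control sham hearts for them. Capitals mark CANNTG, the E-box read by basic helix-loop-helix factors such as Tcf21 and the clock factors.
Pi16 (chr17:29318632-29318931, plus strand): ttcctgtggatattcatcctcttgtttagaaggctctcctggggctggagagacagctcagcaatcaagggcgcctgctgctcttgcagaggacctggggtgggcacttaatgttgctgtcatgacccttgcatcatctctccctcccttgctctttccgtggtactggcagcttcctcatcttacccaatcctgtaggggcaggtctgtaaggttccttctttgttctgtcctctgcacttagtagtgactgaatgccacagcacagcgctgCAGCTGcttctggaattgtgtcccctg
Tcf21 (chr10:22820094-22820393, minus strand): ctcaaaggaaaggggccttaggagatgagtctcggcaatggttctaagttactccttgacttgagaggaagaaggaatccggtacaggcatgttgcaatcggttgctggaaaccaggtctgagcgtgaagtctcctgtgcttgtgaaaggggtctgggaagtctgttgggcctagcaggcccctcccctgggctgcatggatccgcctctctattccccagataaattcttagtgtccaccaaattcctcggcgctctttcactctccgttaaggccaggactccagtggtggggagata
Dpt (chr1:164796413-164796712, plus strand): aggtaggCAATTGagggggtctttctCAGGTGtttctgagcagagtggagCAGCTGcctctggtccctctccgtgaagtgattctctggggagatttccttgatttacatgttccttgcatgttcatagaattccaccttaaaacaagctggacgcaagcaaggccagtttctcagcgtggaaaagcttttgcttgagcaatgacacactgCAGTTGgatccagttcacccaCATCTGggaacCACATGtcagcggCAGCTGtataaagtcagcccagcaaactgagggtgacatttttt
Abca8a (chr11:110095888-110096187, minus strand): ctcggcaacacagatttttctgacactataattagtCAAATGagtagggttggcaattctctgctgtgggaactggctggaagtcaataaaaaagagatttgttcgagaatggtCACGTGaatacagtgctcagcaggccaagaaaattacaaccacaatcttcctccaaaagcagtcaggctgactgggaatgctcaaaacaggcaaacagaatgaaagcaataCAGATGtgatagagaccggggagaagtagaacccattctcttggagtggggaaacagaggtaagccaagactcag
The letters CANNTG, the same on both strands, occurred 1 time in the Pi16 window, 0 times in that of Tcf21, 7 times in that of Dpt and 3 times in that of Abca8a. A share of 72.3% of the 32851 mouse promoter windows of this length held at least 1 such match. The stricter letters CACGTG, which are contained in CANNTG and in this form are bound by clock factors, were in 7.15% of all windows and, among these 4 genes, in that of Abca8a. Such a match describes the sequence and is not a measured binding site.

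Levels differed widely between the 10 genes. Per kilobase of exon, gelsolin was the most abundant in control sham hearts, at 303 ± 10.5 CPM per kb (SD, n = 4), followed by Dpt at 37.4 ± 2.16, with no overlap between their hearts. Abca8a (10.2 ± 1.76), Pi16 (7.04 ± 1.24) and Thy1 (5.6 ± 0.23) came next, and each overlapped its neighbour in this order. Cd248 (4.1 ± 1.13), Scara5 (4.03 ± 0.839), Pdgfra (3.97 ± 0.483) and Ddr2 (3.35 ± 0.334) could not be ordered beyond their spread, and Tcf21 was lowest at 2.17 ± 0.571 CPM per kb. Most ranks shifted by a place or more after TAC. Pi16 ranked 3 at 23.7 ± 8.12 CPM per kb in control TAC and at 31 ± 3.09 in Trbp-cKO TAC hearts, where it overlapped Dpt (38.8 ± 4.07). Scara5 was last in both, at 2.16 ± 0.716 and 0.935 ± 0.47 CPM per kb. The 16 total counts ran from 45166994 to 68274222, and the lowest count of any of the 10 genes in any heart was 129, for Scara5, so the spread between hearts set the precision.

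**Figure D1:**
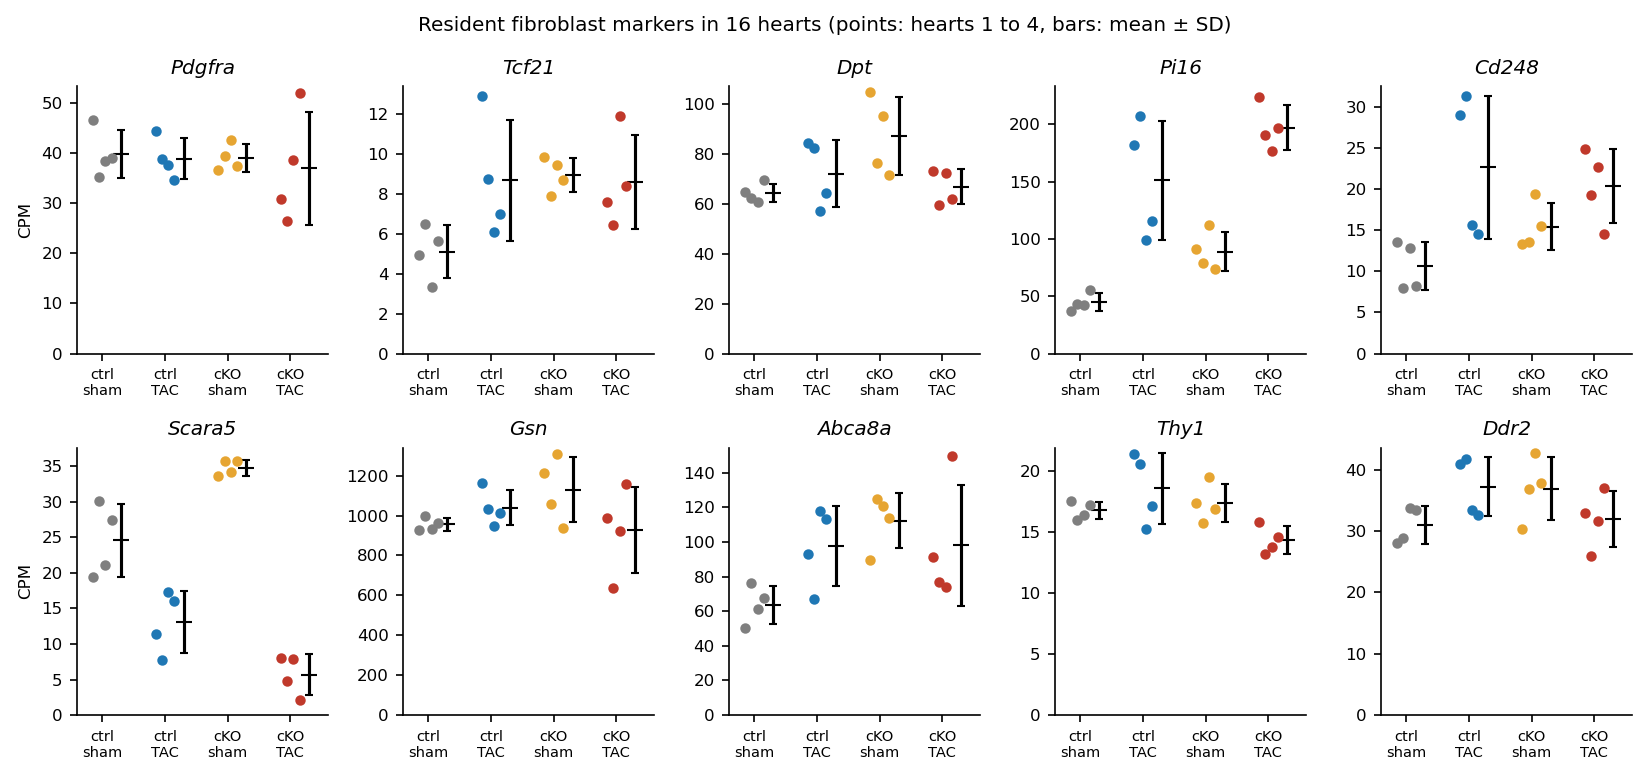
CPM of the 10 resident fibroblast markers in each of the 16 hearts (points, hearts 1 to 4 from left to right in each group) with the mean and SD beside them. Pi16 ran from 37.1 to 55.8 CPM in control sham and from 177 to 224 in Trbp-cKO TAC hearts, while Scara5 ran from 33.6 to 35.8 in Trbp-cKO sham and from 2.05 to 8.04 in Trbp-cKO TAC hearts.

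Libraries were checked on 3 points. Tarbp2, which encodes Trbp, was at 8.39 to 11.4 CPM in Trbp-cKO sham and at 7.14 to 9.74 in Trbp-cKO TAC hearts, against 30.6 to 33.3 in control sham and 21.1 to 31.1 in control TAC hearts. Hearts 1 and 2 of the control TAC group stood apart from hearts 3 and 4. Mitochondrial transcripts took 38.15% and 38.78% of their counts, against 25.23% and 21.68%, and the summed CPM of 12 cardiomyocyte markers was 30739 and 24712, against 60459 and 60626. Their 12 endothelial markers summed to 3006 and 3343 CPM, against 1670.3 and 1701. In the whole control TAC group 0 of 12 cardiomyocyte markers and 12 of 12 endothelial markers had a log2 fold change above 0 against control sham hearts. None of these 24 markers was at 0, and the part of this difference in the results on fibroblast markers was not tested beyond leaving these 2 hearts out.

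The first comparison asks how pressure load alone moved the markers. Pi16 and Cd248 rose, and Scara5 was lower in every heart without passing the test. Across the hearts of the control TAC group, Pi16 was at 182, 207, 98.7 and 116 CPM, against 37.1, 43.5, 42.7 and 55.8 CPM after sham surgery. Every TAC heart lay above every sham heart, and hearts 1 and 2 were the highest. The log2 fold change of Pi16 was 1.75 (standard error 0.22, a 3.37-fold rise, adjusted p = 0.000678, edgeR's quasi-likelihood test with Benjamini-Hochberg adjustment over the 19955 genes). It remained at 1.26 (adjusted p = 0.00419) without control TAC hearts 1 and 2.

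Cd248, endosialin, was at 29, 31.3, 15.7 and 14.6 CPM in the 4 control TAC hearts and at 13.6, 8.02, 12.8 and 8.27 CPM in the control sham hearts. The groups did not overlap, and the pair of hearts with high mitochondrial share held both of the high values. Its log2 fold change was 1.08 (standard error 0.26, adjusted p = 0.0282, edgeR). Without that pair it was 0.51 (adjusted p = 0.499), so the call did not hold without those 2 hearts. The same fit passed 149 of all genes, against 1256 in the main fit. The call was also lost without either of them alone, with log2 fold changes of 0.94 (adjusted p = 0.0958) and 0.88 (adjusted p = 0.093), and without control sham heart 2 or 4, with 0.97 in both fits (adjusted p = 0.084 and 0.0837).

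Scara5, the ferritin receptor, was at 11.4, 7.8, 17.3 and 16.1 CPM in control TAC hearts, below all control sham hearts (19.5, 30.2, 21.1 and 27.5 CPM). Its log2 fold change was -0.90 (95% interval -1.60 to -0.21, adjusted p = 0.103, edgeR), and the exact permutation test of its CPM gave p = 0.0286, two-sided and unadjusted, the smallest that 4 hearts against 4 allow. Scara5 passed with DESeq2 (-0.93, adjusted p = 0.0452) and with edgeR's exact test (-0.91, adjusted p = 0.0205), which passed 13.4% and 7.57% of all genes. Without control TAC hearts 1 and 2 it was -0.56 (adjusted p = 0.708). Tcf21 had a log2 fold change of 0.76 (adjusted p = 0.0742) and Abca8a of 0.62 (adjusted p = 0.11), both with overlap between the groups. Without control TAC hearts 1 and 2 they were 0.35 (adjusted p = 0.729) and 0.86 (adjusted p = 0.142). Pdgfra, Dpt, Gsn, Thy1 and Ddr2 had log2 fold changes of -0.04 to 0.26, with adjusted p of 0.212 to 0.913. The upper ends of their 95% intervals lay between 0.32 (Pdgfra) and 0.54 (Ddr2) on the log2 scale.

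Called genes had to reach 0.05 or less in adjusted p and 0.8 or more in log2 fold change of either sign, the limits that the study used. With these limits 2 of 10 markers were called, beside 3.75% of all genes tested. An adjusted p of at most 0.05 alone was reached by the same 2 markers and by 6.29% of all genes. The groups did not overlap for 3 of 10 markers, 2 higher and 1 lower, beside 17.4% of all genes. The median log2 fold change of the 10 was 0.21, beside 0.02 over all genes.

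**Figure D2:**
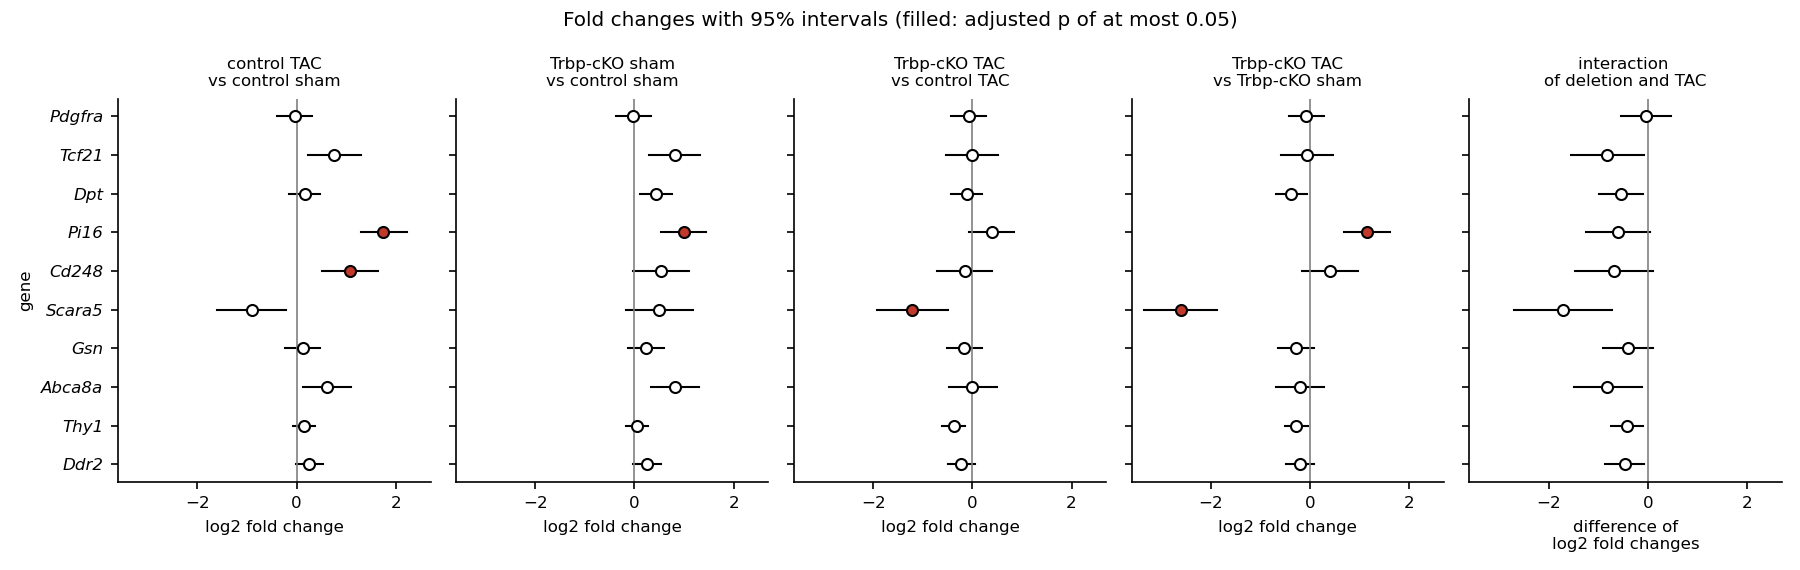
Log2 fold change of each of the 10 markers (rows) in the 4 comparisons and, in the last panel, the interaction, with 95% intervals (lines) and filled points where the adjusted p was at most 0.05. Pi16 is filled in 3 comparisons, Scara5 in 2 and Cd248 in 1, and all 10 points of the interaction lie at or below -0.04.

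The second comparison asks what deletion of Trbp in cardiomyocytes did without pressure load. Pi16 rose, and 4 further markers lay higher in every Trbp-cKO sham heart without passing the quasi-likelihood test. All 4 passed with edgeR's exact test, with adjusted p of 0.00164 for Tcf21, 1.67e-05 for Abca8a, 0.0148 for Scara5 and 0.0242 for Dpt. With that test 8.69% of all genes passed, against 1.68% with the quasi-likelihood test. In the Trbp-cKO sham hearts Pi16 was at 91, 78.8, 112 and 74.1 CPM, all above the control sham hearts, whose highest value was 55.8 CPM. The log2 fold change was 0.99 (standard error 0.22, a 1.99-fold rise, adjusted p = 0.032, edgeR). This call was lost without any one of 7 of the 8 sham hearts, all but control sham heart 4, with log2 fold changes of 0.86 to 1.07 and adjusted p of 0.0524 to 0.106.

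Tcf21, the lineage factor, was at 9.81, 7.89, 9.43 and 8.66 CPM in Trbp-cKO sham and at 4.95, 6.49, 3.32 and 5.62 CPM in control sham hearts (log2 fold change 0.81, standard error 0.25, adjusted p = 0.121, edgeR). Abca8a was at 89.4, 125, 121 and 114 CPM against 50.2, 76.4, 61 and 67.5 CPM (log2 fold change 0.82, standard error 0.23, adjusted p = 0.0903). Neither overlapped between the groups, and DESeq2 gave both an adjusted p below the threshold, of 0.0389 for Tcf21 and 0.0243 for Abca8a, beside 4.53% of all genes. Dpt, at 105, 76.6, 95.5 and 71.7 CPM, also lay above all control sham hearts (64.8, 62.5, 61 and 69.6 CPM), with a log2 fold change of 0.44 (adjusted p = 0.163). Scara5 was narrowly spread in Trbp-cKO sham hearts, at 33.6, 35.8, 34.2 and 35.8 CPM, and above each control sham heart (log2 fold change 0.50, 95% interval -0.18 to 1.19, adjusted p = 0.555), and an adjusted p of 0.0473 when only the 2 groups were fitted.

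Of the remaining 5 genes, Cd248, Ddr2 and Gsn had log2 fold changes of 0.53, 0.25 and 0.24 with adjusted p of 0.392, 0.43 and 0.6. Thy1 (0.05) and Pdgfra (-0.03) had 95% intervals of -0.18 to 0.28 and -0.38 to 0.33. Thus 1 of 10 markers was called, beside 0.967% of all genes, and 1.68% of all genes had an adjusted p of at most 0.05. For 5 of 10 markers all Trbp-cKO sham hearts were higher, beside 14.7% of genes without overlap in either direction. The median log2 fold change of the 10 was 0.47, beside 0.01 over all genes.

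Markers of other cells also differed in sham hearts. The 12 cardiomyocyte markers summed to 48272 to 62476 CPM in Trbp-cKO sham and 62844 to 68214 CPM in control sham hearts, without overlap, 1 of the 12 had an estimate above 0 (median -0.25), and the myosin light chain gene Myl3 passed lower (-1.47, adjusted p = 0.03). Of the 12 mural markers 8 were above 0 (median 0.13) and Acta2, smooth muscle actin, passed higher (1.18, adjusted p = 0.0417). The endothelial sums overlapped (1462 to 2384 and 1553 to 1771 CPM), and the part of these markers in the values of the fibroblast markers was not tested.

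Clock genes moved in the same comparison. Of the 9 listed genes of the Per and Dbp arm 6 passed the test higher, and of the 4 of the Bmal1 arm 3 passed it lower. A score of both arms was 1.24 to 2.74 in control sham and -2.31 to -1.85 in Trbp-cKO sham hearts. With this score in the fit, Pi16 had a log2 fold change of 0.96 with an adjusted p of 0.567, and 0 of the 10 markers and 0 of the 19955 genes passed, so that fit does not set the markers apart from other genes. Within each injection group the score also separated TAC from sham hearts, but in opposite directions. It was lower after TAC in control hearts (-0.72 to 0.09) and higher after TAC in Trbp-cKO hearts (-1.01 to 2.44). Across the injection groups TAC and sham hearts overlapped, as Trbp-cKO TAC heart 3 (2.44) lay within the control sham range. After TAC, Dbp passed higher in control hearts (1.20, adjusted p = 0.0219, edgeR). In Trbp-cKO hearts it passed lower after TAC (-1.39, adjusted p = 0.00432, edgeR).

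The third comparison asks how the deletion changed the loaded heart, Trbp-cKO TAC against control TAC. Scara5 fell and the 9 other markers did not pass. Scara5 was at 8.04, 4.77, 7.93 and 2.05 CPM in Trbp-cKO TAC hearts, against 11.4, 7.8, 17.3 and 16.1 CPM in control TAC hearts. The groups overlapped by control TAC heart 2, which was below 2 of the Trbp-cKO TAC hearts. On the log2 scale Scara5 fell by 1.21 (standard error 0.33, adjusted p = 0.0456, edgeR), and the exact permutation test gave p = 0.0857, two-sided. The call was lost without any one of 13 of the 16 hearts, although the log2 fold change stayed at -1.42 to -1.06 in those fits (adjusted p of 0.0519 to 0.111), and it held at -1.56 (adjusted p = 0.0242) without control TAC hearts 1 and 2 together. With edgeR's exact test, which passed 2.83% of all genes, Scara5 was at -1.22 and did not pass (adjusted p = 0.103).

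Pi16 was at 224, 190.3, 177 and 197 CPM in Trbp-cKO TAC hearts, within or above the range of the control TAC hearts (98.7 to 207 CPM). Its log2 fold change was 0.39 (standard error 0.21, adjusted p = 0.311, edgeR). Without control TAC hearts 1 and 2 it was 0.86 (adjusted p = 0.0179), which passes both thresholds. Thy1 was at 15.8, 13.2, 13.8 and 14.6 CPM against 21.4, 20.6, 15.2 and 17.1 CPM, a log2 fold change of -0.37 (95% interval -0.61 to -0.14, adjusted p = 0.06). Thy1 passed in 4 alternatives, DESeq2 (adjusted p = 0.0166, beside 11.2% of all genes) among them, and was at -0.18 (adjusted p = 0.381) without those 2 control hearts. The 10 listed T lymphocyte markers, whose cells also carry Thy1, summed to 2.75 to 5.02 CPM in control TAC and 3.21 to 4.38 CPM in Trbp-cKO TAC hearts, and 0 of the 9 tested passed.

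Pdgfra, Tcf21, Dpt, Cd248, Gsn, Abca8a and Ddr2 had log2 fold changes of -0.22 to 0.00 with adjusted p of 0.35 to 0.996. The intervals of Tcf21 (-0.53 to 0.51) and Cd248 (-0.71 to 0.40) still hold changes of moderate size. The sign of the small differences of Pdgfra, Tcf21, Dpt and Cd248 turned under some settings, scaling by library size only among them for the first 3 of these genes. In all, 1 of 10 markers was called, beside 2.46% of all genes, and 5.53% of all genes had an adjusted p of at most 0.05. No marker separated the groups without overlap, beside 10% of all genes. The median log2 fold change was -0.13, beside -0.01 over all genes. Among markers of other cells, Myl3 (-1.95, adjusted p = 0.0025) and the macrophage marker Lyve1 (-0.67, adjusted p = 0.0435) passed lower with edgeR. Each was the only gene of its list to pass. Of the 12 cardiomyocyte markers 6 were above 0 (median 0.08), and of the 12 macrophage markers 4 were (median -0.03). All endothelial markers except Vwf (0.24) had estimates below 0, and none of them passed. The cardiomyocyte sums overlapped (32837 to 57873 and 24712 to 60626 CPM), as did the endothelial sums. The part of these genes in the fibroblast values was not tested.

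The fourth comparison asks how pressure load moved the markers in hearts that lack Trbp in cardiomyocytes. Pi16 rose and Scara5 fell, and both separated the groups completely. Pi16 went from 74.1 to 112 CPM in Trbp-cKO sham hearts to 177 to 224 CPM after TAC, a log2 fold change of 1.15 (standard error 0.22, a 2.21-fold rise, adjusted p = 0.00302, edgeR). Scara5 went from 33.6 to 35.8 CPM to 2.05 to 8.04 CPM, and its log2 fold change was -2.61 (standard error 0.34, 95% interval -3.35 to -1.88, adjusted p = 0.000204). As a ratio this is 0.163 of the level after sham surgery. It was the marker with the lowest p of the 10, at rank 144 among all genes tested. The fall of Scara5 passed the test in each alternative tried that changed the fit. The call of Pi16 was lost with the clock score in the fit (1.17, adjusted p = 0.0673, edgeR).

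Cd248, at 24.9, 19.3, 22.7 and 14.6 CPM after TAC and 13.3, 13.6, 19.4 and 15.5 CPM after sham surgery, had a log2 fold change of 0.40 (adjusted p = 0.407). Dpt (-0.38, adjusted p = 0.119), Thy1 (-0.28, adjusted p = 0.135), Gsn (-0.29, adjusted p = 0.342), Ddr2 (-0.21, adjusted p = 0.38) and Abca8a (-0.20, adjusted p = 0.681) had estimates below 0, as had Pdgfra (-0.08) and Tcf21 (-0.06). Heart 4 of the Trbp-cKO TAC group held the highest Pdgfra (52.1 CPM), Gsn (1156 CPM), Abca8a (149.6 CPM) and Ddr2 (37.1 CPM) of its group together with the lowest Scara5. Its cardiomyocyte markers summed to 32837 CPM, against 49083 to 57873 in the other 3 hearts. The share of that heart in the spread of these 4 genes was not tested further. Mural markers summed to 4762 to 5374 CPM after TAC against 3028 to 3272 after sham surgery. Epicardial and mesothelial markers summed to 35.5 to 47 against 13.7 to 23.4 CPM. Valve and tendon-like fibroblast markers summed to 252 to 997 against 36.4 to 46.8 CPM. Of the 12 mural markers 4 were above 0 (median -0.03), 4 passed higher and 1 lower. Cnn1 (1.29) and Des (1.23) had the largest changes of these, and Des went from 1574 ± 147 to 3703 ± 201 CPM. Of 9 epicardial and mesothelial markers tested 6 were above 0 (median 0.46). Only Krt18 (3.73) passed, from 1.73 ± 0.326 to 23 ± 6.73 CPM. Of the valve and tendon-like markers 9 of 10 passed higher (median 3.02). Tnni3 (-0.72) passed lower, alone among 12 cardiomyocyte markers (median -0.38), as did Lyve1 (-0.77) among 12 macrophage markers (median -0.05). The part of these genes in the fibroblast values was not tested. Of the 10 markers 2 were called, beside 5.57% of all genes, and 9.94% of all genes had an adjusted p of at most 0.05. The same 2 markers separated the groups, beside 17.2% of all genes. The median log2 fold change was -0.20, beside 0.00 over all genes.

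The interaction compares the effect of TAC in Trbp-cKO hearts with that in control hearts. All 10 estimates were below 0, from -1.71 (Scara5) to -0.04 (Pdgfra), and 51.2% of all genes had an estimate below 0. For Pdgfra the sign turned under scaling by library size only (0.01) and without control TAC hearts 1 and 2 (0.06). None passed after adjustment with edgeR, beside 0.872% of all genes called and 1.05% with an adjusted p of at most 0.05. At an unadjusted p of at most 0.05 there were 6 markers, Tcf21, Dpt, Scara5, Abca8a, Thy1 and Ddr2, beside 15.4% of all genes, and DESeq2 called 1 marker, beside 5.17% of all genes with an adjusted p of at most 0.05. Without control TAC hearts 1 and 2 the estimates of these 6 were -0.42 for Tcf21, -0.30 for Dpt, -2.06 for Scara5, -1.06 for Abca8a, -0.23 for Thy1 and -0.31 for Ddr2, with adjusted p of 0.0622 to 0.674. The marker called by DESeq2 was Scara5, with an estimate of -1.71 (standard error 0.46, adjusted p = 0.0903) with edgeR and -1.69 (adjusted p = 0.0143) with DESeq2. Pi16 had an estimate of -0.61 (95% interval -1.25 to 0.04, adjusted p = 0.355), and this was -0.12 without control TAC hearts 1 and 2, where Cd248 went from -0.69 to -0.11. The 4 comparisons share hearts, so their values for a gene are not independent of each other.

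The other genes of resident fibroblasts moved in either direction. The list held 30 genes, all tested, and in control TAC against control sham hearts 6 passed higher and 1 lower (median 0.33). Mfap5, a microfibril protein, went from 18.4 ± 3.8 to 81.8 ± 40.5 CPM (log2 fold change 2.16, adjusted p = 0.00406) and Fstl1, a secreted follistatin-like glycoprotein, from 76.2 ± 11.7 to 192 ± 61.8 CPM (1.33, adjusted p = 0.00485, both SD, n = 4). Between Trbp-cKO and control hearts after sham surgery, 4 passed higher and 1 lower (median 0.43). Osr1, a transcription factor of mesenchymal progenitors, was at 2.87 ± 1.02 against 0.864 ± 0.287 CPM (log2 fold change 1.73, adjusted p = 0.00802). Gfpt2, an enzyme of the hexosamine pathway, was lower there (-1.23, adjusted p = 0.0484).

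Between Trbp-cKO and control hearts after TAC, 1 of the 30 passed higher, the collagen gene Col14a1 (0.83, adjusted p = 0.0215). In the same comparison 2 passed lower, among them Hsd11b1, which reactivates glucocorticoids (-0.68, adjusted p = 0.0427). Between TAC and sham surgery in Trbp-cKO hearts, 6 passed higher and 6 lower (median 0.08), and Mfap5 (2.42, adjusted p = 0.000438) and Fstl1 (1.52, adjusted p = 0.000517) were again the genes with the largest changes. Without control TAC hearts 1 and 2 the count of higher genes in control TAC against control sham hearts was 3. Leaving out control TAC heart 3 alone made it 13. All genes that passed, in either direction, numbered 149 and 2512 in these 2 fits, against 1256 in the main fit. Between Trbp-cKO TAC and control TAC hearts the count of higher genes among the 30 was 4 without control TAC hearts 1 and 2. It was 0 with only the 2 groups fitted, and with scaling by library size only the count of lower genes was 0. In these 3 fits 829, 96 and 2026 of all genes passed, against 1103 in the main fit.

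Genes of activated fibroblasts had larger medians than the 10 resident markers in the 3 comparisons that involve TAC hearts. Between Trbp-cKO and control hearts after sham surgery the medians were similar (0.46 and 0.47). Of 22 listed genes 14 passed higher in control TAC against control sham hearts (median 1.46). Between Trbp-cKO and control hearts 1 passed higher after sham surgery (median 0.46) and 13 after TAC (median 1.03). Between TAC and sham surgery in Trbp-cKO hearts 20 passed higher (median 2.41), and 0 passed lower in any of the 4 comparisons. Between Trbp-cKO and control hearts after TAC the largest changes were those of Cthrc1 and Thbs4. Cthrc1, a secreted protein of collagen-producing cells, was at 0.653 ± 0.54 CPM in control TAC and at 3.93 ± 3.11 CPM in Trbp-cKO TAC hearts (log2 fold change 2.60, adjusted p = 0.0198). Thbs4, a thrombospondin, was at 52.9 ± 29.6 CPM in control TAC and at 264 ± 146 CPM in Trbp-cKO TAC hearts (log2 fold change 2.32, adjusted p = 0.00334). In control hearts the largest changes after TAC were those of Comp, a cartilage matrix protein (4.25, adjusted p = 0.00741), and Cilp. Cilp, a matrix protein of loaded hearts, went from 13 ± 2.48 CPM in control sham to 123 ± 50.1 CPM in control TAC hearts (3.24, adjusted p = 0.000226). The count of 14 was 6 without control TAC hearts 1 and 2, and the count of 13 was 19. In the same fit all genes that passed, in either direction, went from 1256 to 149 and from 1103 to 829. Fitting only the 2 groups compared left 0 of the 13. That fit passed 96 of 18859 genes, against 1103 of 19955 in the main fit. The count of 1 after sham surgery ranged from 0 to 10 over the alternatives, with 10 under edgeR's exact test, where the count of the other resident genes went from 4 to 12 and the share of all genes that passed from 1.68% to 8.69%. The sum of the 22 genes was 2606 to 5830.4 CPM in Trbp-cKO TAC and 1013 to 2169.6 CPM in control TAC hearts, with no overlap, whereas the sum of the 10 resident markers overlapped (1061 to 1693 and 1348 to 1681 CPM). Gelsolin held most of this last sum, at 926 of a mean of 1406 CPM in Trbp-cKO TAC and 1039.8 of 1499.7 CPM in control TAC hearts, so the sum says little of the other 9 markers. The sums of 3 lists of other cells also did not overlap between these groups, but single genes carried much of 2 of them. The 12 mural cell markers summed to 4762 to 5374 against 2322 to 3618 CPM, the 10 valve and tendon-like fibroblast markers to 252 to 997 against 59.4 to 226 CPM, and the 10 epicardial and mesothelial markers to 35.5 to 47 against 26.4 to 34.9 CPM. Of the mural markers 5 of 12 had an estimate above 0 (median -0.15) and 4 passed higher, with the largest changes in Acta2 (2.35, adjusted p = 0.000289) and Des (1.07, adjusted p = 0.00868). Des, the intermediate filament desmin, which cardiomyocytes also express, held most of the rise of that sum, at 1762 ± 657 CPM in control TAC and 3703 ± 201 CPM in Trbp-cKO TAC hearts (SD, n = 4). Of the epicardial and mesothelial markers 3 of 9 tested were above 0 (median -0.24) and 1 passed higher, the keratin gene Krt18, from 8.16 ± 1.44 to 23 ± 6.73 CPM, a larger rise than that of the whole sum. Of the valve and tendon-like markers 8 of 10 were above 0 (median 1.79) and 5 passed higher, led by Cilp2 (3.20, adjusted p = 0.00928) and Fmod (2.81, adjusted p = 0.0187), and 0 genes of the 3 lists passed lower. Comp and Chad are on both the activated and the valve and tendon-like list, and the part of these other cells in the values of the fibroblast genes was not tested.

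**Figure D3:**
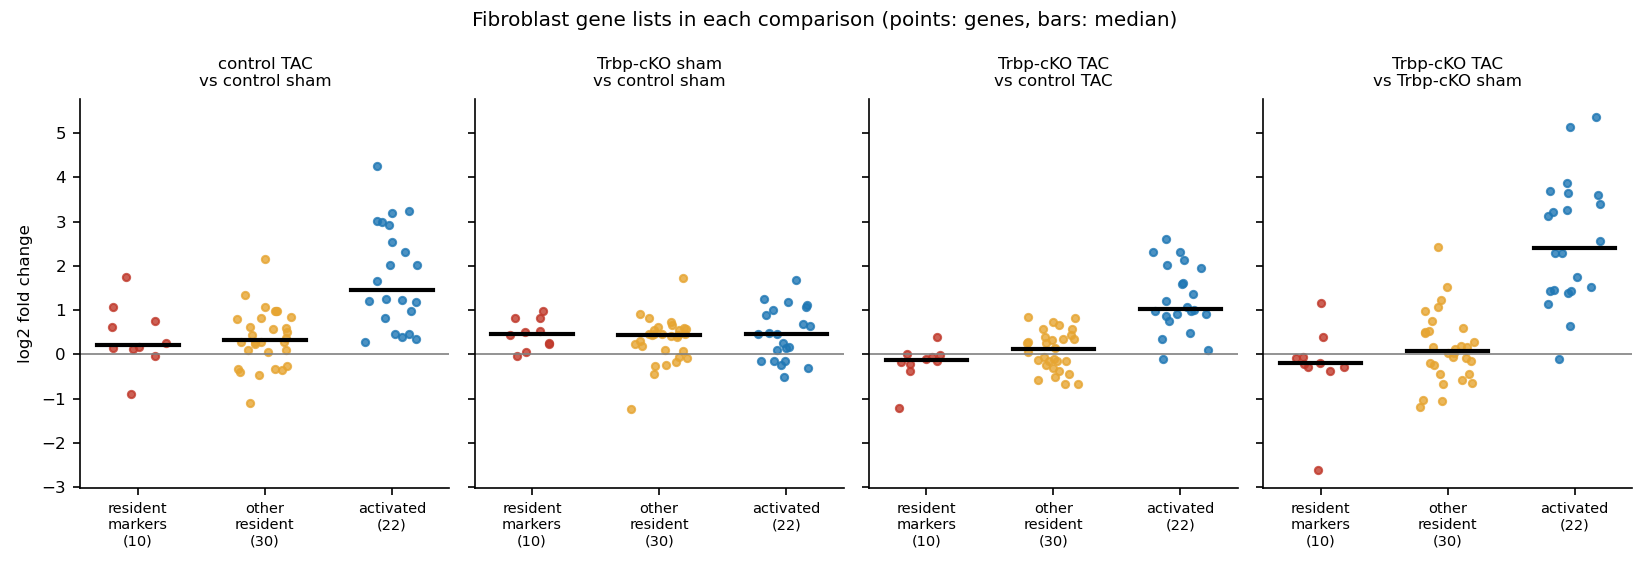
Log2 fold change of each gene (points) of 3 fibroblast gene lists in the 4 comparisons, with the median of each list (bars). The medians of the 10 resident markers lie between -0.20 and 0.47 in the 4 panels, and those of the 22 activated genes between 0.46 and 2.41.

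**Figure D4:**
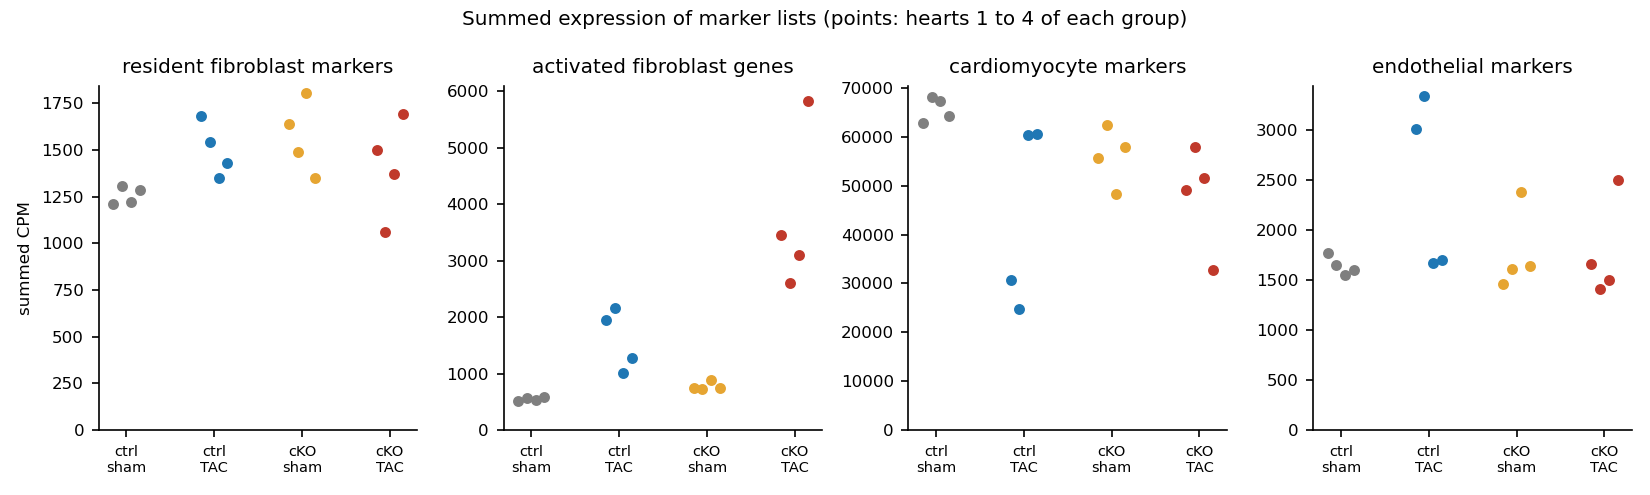
Summed CPM of the resident markers, the activated fibroblast genes and the cardiomyocyte and endothelial markers in each heart (points, hearts 1 to 4 from left to right). Control TAC hearts 1 and 2 are at 30739 and 24712 CPM for the cardiomyocyte and at 3006 and 3343 CPM for the endothelial markers.

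Ligands and relatives of the markers were listed as 25 genes, of which 24 were tested, since Mmp1a was at 0 in all hearts. In control TAC against control sham hearts 5 passed higher and 0 lower. None of these 5 passed without control TAC hearts 1 and 2, or with the replicate number as a block. All genes that passed numbered 149 and 511 in these fits, against 1256 in the main fit. The 5 included Crispld1, a relative of Pi16 in the cysteine-rich secretory family (1.82, adjusted p = 0.0225), and Capg, an actin-capping relative of gelsolin (1.28, adjusted p = 0.0232). Abca8b, the neighbouring paralog of Abca8a, also passed (0.78, adjusted p = 0.0429). The exons of Abca8a share 0.559% of their 75-base stretches with Abca8b, so reads of one are seldom open to both. Between Trbp-cKO and control hearts after sham surgery, 0 of 24 passed.

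Among the ligands of the receptor Pdgfra, Pdgfc was at 6.93 ± 1.95 CPM in Trbp-cKO TAC and 2.44 ± 0.788 CPM in control TAC hearts (log2 fold change 1.50, standard error 0.26, adjusted p = 0.00373, edgeR). Pdgfc and Crispld1 (1.51, adjusted p = 0.0386) were the 2 of 24 that passed in that comparison, both higher. Fitting only the 2 groups compared left 0 that passed higher, and with DESeq2 3 passed lower. Of all genes, 96 of 18859 and 2113 of 18821 passed in these 2 fits, against 1103 of 19955 in the main fit. Pdgfa lay at 14.1 to 23.8 CPM in Trbp-cKO TAC and 14 to 21.9 CPM in control TAC hearts, and Pdgfra itself at 26.4 to 52.1 and 34.7 to 44.4 CPM. Between TAC and sham surgery in Trbp-cKO hearts, Pdgfc and Crispld1 (2.74, adjusted p = 0.00066) passed higher and Abca6, a lipid transporter of the family of Abca8a, passed lower (-1.77, adjusted p = 0.00642).

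Within groups the markers did not all vary together. After the group means were subtracted, the 45 pairs had correlations of log2 CPM over the 16 hearts from -0.67 (Cd248 with Abca8a) to 0.84 (Pi16 with Thy1), with a median of 0.32, and 32 pairs were above 0. Dpt correlated at 0.80 with Thy1 and at 0.78 with Pi16. Scara5 and Abca8a had a median correlation with the other markers of -0.26 and -0.15. Abca8a was nonetheless positively correlated with Gsn (0.35), Pdgfra (0.32) and Ddr2 (0.25). These are descriptions over hearts that share group and library, and control TAC hearts 1 and 2, which were high in Pi16, Cd248, Thy1, Dpt and Ddr2 and low in Scara5, are among them. The genes whose level followed the mean of the 10 markers most closely over the 16 hearts, group means subtracted, were Pck2 (Pearson r = 0.93, Spearman rho = 0.94), Itprid2 (0.91 and 0.91), Kdelc2 (0.91 and 0.86), Rnf145 (0.90 and 0.89) and Taf4 (0.90 and 0.86), among 12950 genes ranked.

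**Figure D5:**
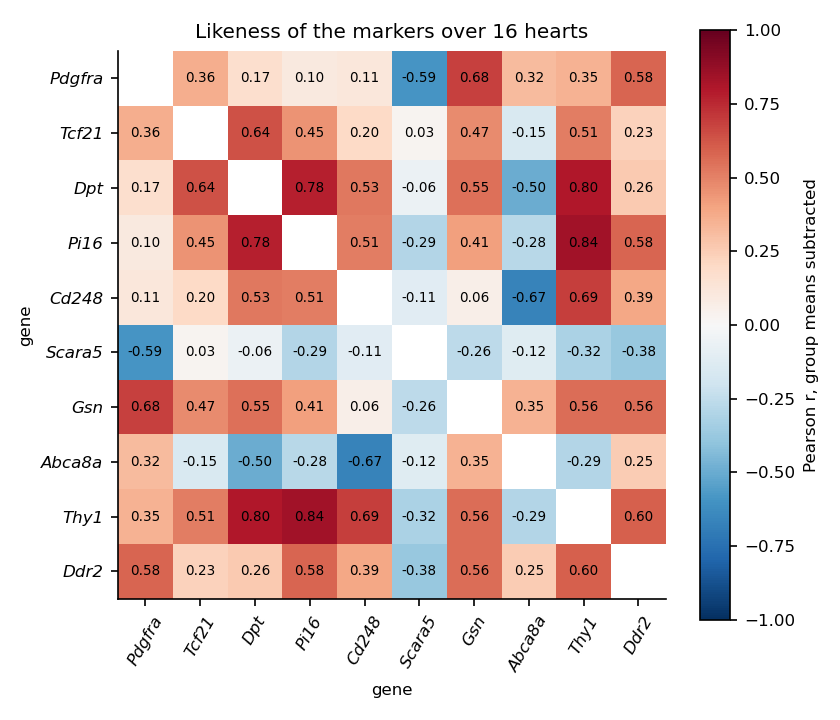
Pearson correlation of log2 CPM between each pair of the 10 markers over 16 hearts, with the group means subtracted (color, from -1 in blue to 1 in red). Pi16, Dpt and Thy1 form the block of the highest values, 0.78 to 0.84, and the rows of Scara5 and Abca8a hold all of the negative ones.

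On GRCm38 (GENCODE M21), the 3 called markers lie at chr17:29317680-29330593 (Pi16, ENSMUSG00000024011, plus strand), chr19:5068078-5070682 (Cd248, ENSMUSG00000056481, plus strand) and chr14:65666403-65764826 (Scara5, ENSMUSG00000022032, plus strand), and all are protein-coding genes. The gene models of Cd248 and Scara5 share no exon bases with another gene, and Pi16 shares 222 with AC162182.1 on the opposite strand. The counting is not stated to have used strand, so reads over those bases cannot be assigned to one of these genes.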

How the data were processed

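RNA of 16 ventricles was measured by RNA-seq with paired 150-base reads. Per the submitters' processing notes and the study's methods, the authors used cutadapt 2.3 for trimming, HISAT2 2.1.0 for alignment to GRCm38 and StringTie 1.3.4 for transcripts. The deposited values are gene counts, whole numbers without normalization, and the read length assumed when they were derived is not given in the sources used here, so fits were repeated with counts divided by 2. Identifiers were named and placed with GENCODE M21, which held 55480 of 55573 genes.

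The counts entered edgeR 4.0.16 (R 4.3.3), with its default filter on low counts, TMM factors and one robust quasi-likelihood model over the 4 groups together. Adjustment of p was by Benjamini-Hochberg over 19955 genes. A gene passed at an adjusted p of at most 0.05 and was called if the absolute log2 fold change was also at least 0.8. The methods of the study name Fisher's exact test. The alternative run here was edgeR's exact test on the 2 groups compared. CPM used TMM-adjusted library sizes. CPM per kb divides by the union of exons. Intervals are 95% t intervals of the fit, and exact permutation tests of CPM ran over 70 assignments. Steps across all genes were tested on simulated data. Named genes are the 10 markers, the 5 genes most alike and, for the lists and comparisons described gene by gene, the 2 genes with the largest change among those that passed. Abca8b, Pdgfa, Chad and Vwf were named after their values were seen. The markers and gene lists were chosen with earlier results of these data known. The alternatives were scaling by library size only, DESeq2 1.42.0, other filters, no threshold on the fold change, mitochondrial genes left out, the 2 groups compared alone, edgeR's exact test, halved counts, a replicate block, a clock score and each heart left out in turn.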

Additional observations from a re-analysis of the deposited data

Results flagged for a closer look

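For 5 genes of the related lists the effect of TAC differed between Trbp-cKO and control hearts by the interaction test (edgeR, Benjamini-Hochberg adjustment over 19955 genes). Lum, which encodes the collagen-binding proteoglycan lumican, had an interaction of -0.86 (adjusted p = 0.0129): control hearts went from 54.7 ± 5.51 CPM after sham surgery to 83.9 ± 5.8 after TAC, and Trbp-cKO hearts from 91.6 ± 7.99 to 77 ± 7.24 (SD, n = 4). Osr1 had an interaction of -2.04 (adjusted p = 0.0266), with 1.7 ± 0.385 CPM in control TAC and 1.37 ± 0.152 in Trbp-cKO TAC hearts. Abca6 had one of -2.47 (adjusted p = 0.0356), with 10.7 ± 3.73 CPM after sham surgery and 3.15 ± 0.616 after TAC in Trbp-cKO hearts. Among the activated genes, Ddah1 (1.10, adjusted p = 0.022) was at 27.3 ± 7.53 CPM and Wisp1, also named Ccn4 (2.82, adjusted p = 0.0325), at 4.57 ± 2.39 CPM in Trbp-cKO TAC hearts. These calls depend on the processing. With the replicate block or the clock score in the fit, 0 of the genes of these 3 lists passed the interaction test, and without the filter on low counts Abca6 did not pass. Of all genes, 55, 1 and 111 passed in these 3 fits, against 209 in the main fit. With DESeq2, 6 other resident genes, 5 activated genes and 2 relatives of the markers passed in the directions given here. DESeq2 passed 5.17% of all genes in the interaction, against 1.05% with edgeR. Of the 40 combinations of marker and group, 0 held a heart set apart from the other 3 by Dixon's test at its 95% critical value, where chance alone sets apart about 1 in 20.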

How the results depend on the processing

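The rise of Pi16 in control TAC hearts and the fall of Scara5 after TAC within the Trbp-cKO hearts passed in each alternative that changed the fit, with log2 fold changes of 1.26 to 1.90 (adjusted p up to 0.0178) and of -2.82 to -2.34 (adjusted p up to 0.0171). The alternative without control TAC hearts 1 and 2 was chosen after seeing the data. Of the 10 markers, control TAC against control sham called 2, and 1 with only the 2 groups compared, 1 without control TAC hearts 1 and 2, 3 with DESeq2 and with edgeR's exact test (Scara5 added), and 1 to 3 with each heart left out. Of all genes this comparison called 748, and in the same order 304, 121, 1088, 929 and 277 to 1583. With the clock score it called 2 markers and 269 of all genes, with Cd248 lost (1.16, adjusted p = 0.0905) and Tcf21 gained (1.28, adjusted p = 0.0403). Trbp-cKO sham against control sham called 1, and 2 with DESeq2, 3 with only the 2 groups, 3 with edgeR's exact test, 3 without control TAC hearts 1 and 2, 0 with the clock score and 0 to 2 with each heart left out. Of all genes it called 193, and in the same order 369, 429, 601, 325, 0 and 74 to 268. Trbp-cKO TAC against control TAC called 1, and 0 with library size only, no filter, only the 2 groups, the exact test or the clock score, 2 without control TAC hearts 1 and 2 and 0 to 1 with each heart left out. Of all genes it called 491, and in the same order 705, 386, 84, 409, 462, 540 and 287 to 743. TAC against sham within Trbp-cKO hearts called 2, and 1 with the clock score, where Pi16 had 1.17 (adjusted p = 0.0673). Of all genes it called 1112, and 379 with the clock score. The interaction called 0 markers and 174 of all genes, and with DESeq2 1 marker and 533 of all genes. The causes were not tested.

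The replicate numbers do not pair the hearts: of 24 same-numbered pairs 3 had a correlation above 0.1 (range -0.427 to 0.21), and 1 of 16 hearts correlated best with its own number. With the replicate block the number of markers called was 2 in control TAC against control sham. It was 0 between Trbp-cKO and control hearts after sham surgery and 0 between them after TAC. Pi16 had an adjusted p of 0.0879 and Scara5 of 0.102 in these last 2, and Tcf21 reversed to 0.02 in the last. Of all genes, 383, 107 and 274 were called in these 3 comparisons with the block, against 748, 193 and 491 in the main fit. Scaling by library size only moved the median of all genes from 0.01 to 0.11 in the sham comparison and from -0.01 to 0.13 in Trbp-cKO TAC against control TAC.

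Signs turned for 5 markers, none of them past the test in that comparison. In addition Abca8a, at 0.00 between Trbp-cKO and control hearts after TAC, ranged from -0.28 to 0.15 over the alternatives. In control TAC against control sham hearts Pdgfra was 0.30 with the clock score and -0.11 to 0.04 with a heart left out, and without control TAC hearts 1 and 2 Dpt was -0.08 and Thy1 -0.05. In sham hearts Pdgfra was 0.07 with library size only, 0.57 with the clock score and -0.09 to 0.04 with a heart left out, and Thy1 was -0.01 without Trbp-cKO sham heart 3. In TAC hearts, library size only gave Pdgfra 0.08, Tcf21 0.14 and Dpt 0.03, DESeq2 and no filter each gave Tcf21 0.01, and without control TAC hearts 1 and 2 Pdgfra was 0.02, Tcf21 0.39, Dpt 0.13 and Cd248 0.42. With a heart left out there, Pdgfra ranged from -0.28 to 0.06, Tcf21 from -0.21 to 0.24 and Cd248 from -0.31 to 0.04. Within Trbp-cKO hearts, leaving out a heart gave Pdgfra -0.29 to 0.05 and Tcf21 -0.26 to 0.06. The interaction of Pdgfra was 0.01 with library size only, 0.06 without control TAC hearts 1 and 2 and -0.25 to 0.09 with a heart left out. Depth limited no marker, as counts were 129 or more.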
